A study of Drosophila melanogaster with 2 samples.

Results

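The spliceosome removes introns from transcripts. Its small nuclear ribonucleoproteins (snRNPs) are built on a ring of Sm proteins, the U1 snRNP reads the 5′ splice site, the U2 snRNP and its helpers settle on the branch site and 3′ splice site, and the U4/U6-U5 tri-snRNP carries the catalytic centre. SR proteins bind exons and recruit these particles, and the exon junction complex is left on the spliced RNA upstream of each joined exon. Bgb (Big brother) is the fly homolog of CBF-beta, which does not bind DNA itself and is the partner of Runt domain transcription factors.

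The genes described are 31 protein-coding splicing and exon junction genes, named one by one and looked up in the Ensembl annotation of the fly genome, out of 13968 protein-coding genes in all. They were 7 Sm ring genes, 3 U1 snRNP genes, 7 U2 snRNP and branch site genes, 6 genes of the tri-snRNP and later steps, 5 genes of the SR group and 3 exon junction genes. All 31 names were found, 1 of them (SmG, annotated as SNRPG) through another name. Chromatin immunoprecipitation with sequencing (ChIP-seq) had been made from whole Drosophila melanogaster embryos, 0 to 24 h old, of the transgenic strain Bgb-GFP, which carries a Bgb-eGFP fusion. There were 2 biological replicates of this 1 group, both of the same strain and donor entry, on chromatin sonicated to fragments of 200 to 800 bp. The labels give the antibody in conflicting ways, as anti-GFP in the free text and as Bgb in the antibody field. No control library and no second condition were analysed here, so no test between groups was possible, and counts are set beside the same counts over all genes or all peaks. In whole embryos, binding in fewer cells and weaker binding per cell cannot be told apart.

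A gene was counted as having a peak where the summit of a peak in the conservative list of the series (4488 peaks that passed the authors' comparison of the replicates) lay between 2 kb upstream of the gene start and the gene end. Signal is the authors' own value for each peak, in the unit of their peak caller, and read depth is unknown from these files. The conservative signals ran from 2.08 to 1962 with a median of 144. Replicate 1 gave a thresholded list of 6061 peaks (median signal 74.5) and replicate 2 gave 3200 (median 77.2), and a second series list held 6393.

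Most of the splicing and exon junction genes had a Bgb-eGFP peak. Of 31 genes, 27 (87.1%) had a conservative peak, against 37.4% of all protein-coding genes. All 7 Sm ring genes, all 3 U1 genes, all 7 U2 and branch site genes and all 3 exon junction genes were among the 27. The 4 genes without a conservative peak were Prp31, Prp18 and Prp19, which act in the tri-snRNP or later steps, and x16, an SR protein gene. The strongest conservative signal per gene had a median of 179 (n = 27), close to the 186 over the 5223 protein-coding genes with a peak.

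The share lay above that of all genes in each list. In the second series list 28 of 31 genes had a peak, against 45.2% of all genes. In the replicate 1 list 26 of 31 had one, against 43.7%, and in the shorter replicate 2 list 22 of 31, against 29.5%. A window of 1000 bp either side of any transcription start site (TSS) of the gene gave 26 of 31, against 33.6%. Counting a gene only where its own TSS was the protein-coding TSS nearest to a summit also gave 26 of 31, against 27.2%. A peak was present in all 4 lists for 21 of the 31 genes. SmF, Prp3, B52, Rsf1 and x16 had a peak in the replicate 1 list and not in the replicate 2 list, and U2af50 had one in the replicate 2 list and not in the replicate 1 list.

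**Figure D1:**
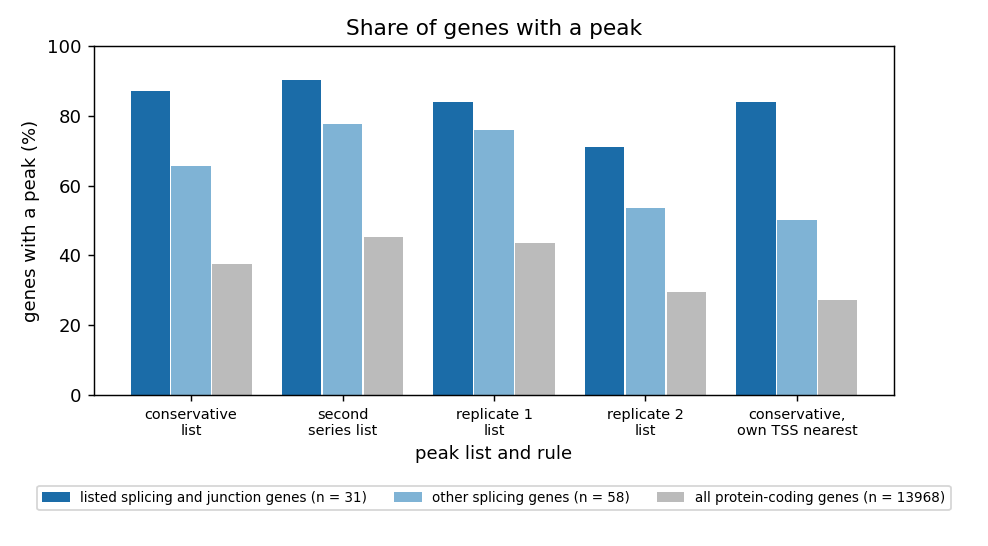
Share of genes with a peak (%, vertical axis) for the 31 listed splicing and junction genes, 58 other splicing genes and 13968 protein-coding genes, in each peak list and under the rule that the gene's own TSS is nearest to the summit. In the conservative list the 3 bars stand at 87.1%, 65.5% and 37.4%.

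Most of the strongest summits lay just upstream of the gene start, in DNA that holds the sequence CGATAA or CGATAG. These are forms of the CGATA element bound by the boundary factor BEAF-32, and the overlapping palindrome TATCGATA is the core of the site of the replication-related factor DREF. To show what the DNA under the summits looks like, stretches of up to 50 bp either side of the summit are printed for 8 genes, with strongest signals from 180 to 748, taken from the RefSeq genome of Release 6 (dm6), 5′ to 3′ on the strand of the gene. They lie on dm6 at chr2L:7885436-7885517 (SmE, minus strand), chr3R:17002354-17002454 (Sf3a1, minus), chr3R:16342089-16342189 (SF2, minus), chr2L:568208-568308 (Sf3b1, plus), chrX:5309135-5309235 (snf, plus), chr2L:10426620-10426720 (SmB, minus), chr3L:833379-833479 (Sf3b3, minus) and chr2L:3029145-3029245 (Sf3b2, minus). These are the 8 highest on the arms from which sequence is printed here, and Pym, SmD3, mago, U2A and tsu, which had higher signals than some of them, are not shown. Capitals mark either form of the CGATA element, read on either strand. The SmE stretch is shortened to 82 bases at its gene side and leaves out a second copy. Those of SF2 and Sf3b2 hold none, and that of Sf3b2 holds tatcgata.
SmE: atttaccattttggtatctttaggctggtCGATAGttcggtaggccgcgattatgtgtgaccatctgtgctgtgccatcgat
Sf3a1: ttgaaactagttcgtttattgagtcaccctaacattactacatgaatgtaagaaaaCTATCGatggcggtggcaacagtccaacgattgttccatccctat
SF2: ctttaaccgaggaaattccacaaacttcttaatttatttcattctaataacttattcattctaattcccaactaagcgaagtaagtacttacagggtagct
Sf3b1: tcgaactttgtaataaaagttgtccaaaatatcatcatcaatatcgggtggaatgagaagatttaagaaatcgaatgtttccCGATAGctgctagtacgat
snf: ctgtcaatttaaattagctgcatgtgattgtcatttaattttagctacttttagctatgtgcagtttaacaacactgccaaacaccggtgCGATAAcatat
SmB: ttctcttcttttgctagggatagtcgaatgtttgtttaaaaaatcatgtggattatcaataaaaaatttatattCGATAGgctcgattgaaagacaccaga
Sf3b3: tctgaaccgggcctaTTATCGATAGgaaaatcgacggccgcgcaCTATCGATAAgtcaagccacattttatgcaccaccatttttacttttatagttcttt
Sf3b2: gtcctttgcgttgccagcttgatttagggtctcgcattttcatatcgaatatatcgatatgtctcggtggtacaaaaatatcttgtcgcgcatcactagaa

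Within the printed stretches the marked copies sit at different distances from the summit. The nearest copy lay 8 bp from the Sf3a1 summit, 18 bp from that of SmE, 27 bp from that of SmB, 35 bp from that of Sf3b1 and 43 bp from that of snf. Sf3b3 held 4 copies, as a pair of TATCGATA palindromes that each complete a copy on either strand, and the nearest was 1 bp from the summit. The SmE stretch also holds gtgtgacc, the complement of GGTCACAC, the site of the promoter factor M1BP.

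The Sm ring genes encode the proteins that form the heteroheptameric ring around the U1, U2, U4 and U5 small nuclear RNAs. All 7 had a conservative peak, with strongest signals from 83.0 to 1009 and a median of 179. SmD3 was the strongest, with a signal of 1009 (replicate 1 631, replicate 2 375) at chr2R:12168502-12168796 and a summit 80 bp upstream of its TSS. SmE followed with 748 (481 and 272) at chr2L:7885299-7885611, with the summit 17 bp upstream. Both lay among the 10% of genes with the highest strongest signals, which began at 518.

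The other Sm genes had lower signals. SmB had 233 (151 and 76.4) with the summit 43 bp upstream of its TSS. SmD2 had 179 (116 and 76.4), 48 bp upstream, and SmD1 had 160 (78.0 and 71.6), 62 bp upstream. Of these 3 genes only SmD1 had nearly equal signals in the replicates. SmG had 162 (85.0 and 94.5), 4 bp upstream, and was the only Sm gene whose strongest peak was higher in replicate 2. SmF was the weakest with 83.0 (64.4 and 25.9), its summit 49 bp inside the gene, and it had no peak in the replicate 2 list.

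All 3 U1 snRNP genes had a peak, with signals from 147 to 275. snf, whose product is the fly counterpart of a U1 and a U2 protein of mammals, had 275 (192 and 81.5) at chrX:5309112-5309307, 57 bp upstream of its TSS. snRNP-U1-C, whose zinc finger protein helps U1 pair with the 5′ splice site, had 151 (111 and 90.9), 60 bp upstream. snRNP-U1-70K, which binds the first stem-loop of U1 RNA, had 147 (82.5 and 59.1), 148 bp upstream. In snf and snRNP-U1-70K replicate 1 was the higher. For snRNP-U1-C the authors' pairing links 111 to a replicate 1 peak with its summit at -287 bp, nearest to gukh, and replicate 1 had no ranked peak over the -60 bp summit, so its replicates cannot be compared there.

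The U2 snRNP and branch site genes all had a peak, with strongest signals from 79.9 to 747 and a median of 189. Sf3a1, a subunit of the SF3a complex of U2, had 747 (468 and 281) at chr3R:17002255-17002558, 49 bp upstream of its TSS. U2A, whose product binds U2 RNA together with Snf, had 392 (297 and 105) at chr2R:7676299-7676521, 40 bp upstream. Its replicates stood far apart, at a log2 ratio of 1.50.

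The SF3b complex holds the branch site adenosine, and its 3 listed subunit genes differed in signal. Sf3b1, the large scaffold subunit, had 358 (205 and 156), 82 bp upstream of its TSS. Sf3b3 had 189 (111 and 85.4), 44 bp upstream, and Sf3b2 had 180 (119 and 60.8), 27 bp upstream. The U2AF genes, whose products form the dimer that reads the 3′ splice site, were the lowest of the group. U2af38, the small subunit, had 137 (88.9 and 52.2) with the summit 19 bp inside the gene. U2af50, the large subunit, had 79.9 (34.5 and 43.7), 7 bp inside, higher in replicate 2.

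The genes of the tri-snRNP and later steps were split, with a peak in 3 of 6 and no signal above 146. Prp8, the central protein of the U5 snRNP, had 146 (69.7 and 72.3), 81 bp upstream of its TSS, nearly equal in the replicates. Prp38, needed to activate the assembled spliceosome, had 141 (75.3 and 57.1), 5 bp inside the gene. Prp3, a U4/U6 protein, had 114 (76.1 and 25.5), 28 bp upstream, and no peak in the replicate 2 list.

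The other 3 genes of these steps had no peak in any of the 4 lists. Their highest value came from the ranked list of the series, which has no threshold and whose median is 18.7. Prp31, which joins U4/U6 to U5, reached 48.4 there (highest ranked signal in its window 30.5 in replicate 1 and 21.0 in replicate 2). Prp18, a factor of the second catalytic step, reached 47.5 (42.2 and 10.3). Prp19, a ubiquitin ligase that gives its complex its name, reached 46.7 (20.9 and 32.5). These values lay below the lowest strongest signal of the genes with a peak described here, 79.9.

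In the SR group 4 of 5 genes had a conservative peak and 5 of 5 had one in the second series list, while 1 of 5 had one in the replicate 2 list. SF2, the homolog of human SRSF1, stood apart with 364 (212 and 152) at chr3R:16342029-16342337, 151 bp upstream of its TSS. B52, the SR protein also called SRp55, had 117 (92.2 and 31.5), 28 bp upstream. SC35, the homolog of SRSF2, had 80.5 (43.6 and 30.5), with the summit 184 bp inside the gene from the nearest of its start sites. Its peak was in both series lists and in neither replicate list.

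The remaining members of the SR group had no conservative peak at their own start. Rsf1, which in flies antagonises SR proteins, had 115 (71.1 and 44.3), but this summit lay 1759 bp upstream of Rsf1 and 23 bp from the TSS of Mob3. In the second series list Rsf1 also had a peak of 53.2 at 411 bp inside the gene. x16, an SR protein related to human SRSF7, had 2 peaks in the second list. The stronger, 88.0, was nearest to the TSS of Hrb27C, and the other, 60.7, was 421 bp inside x16.

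The exon junction genes held the strongest peak of all 31. Pym, whose product binds the Mago-Tsunagi dimer and acts in taking the complex apart, had 1811 (1114 and 693) at chr2R:23856793-23857144, 39 bp upstream of its TSS, and ranked 3 of 4488. mago, a core subunit first known from germ plasm assembly, had 446 (260 and 183) at chr2R:21128439-21128664, 26 bp upstream. tsu, which encodes the Y14 partner of Mago, had 2 peaks. The stronger, 302 (173 and 127), lay 1053 bp upstream of tsu and 28 bp from the TSS of Pgm2a, and the other, 228 (114 and 110), lay 25 bp upstream of tsu itself. The gene of eIF4AIII, the RNA-clamping helicase of the core, was not among the 31 and had 311 (202 and 109), 50 bp upstream.

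**Figure D2:**
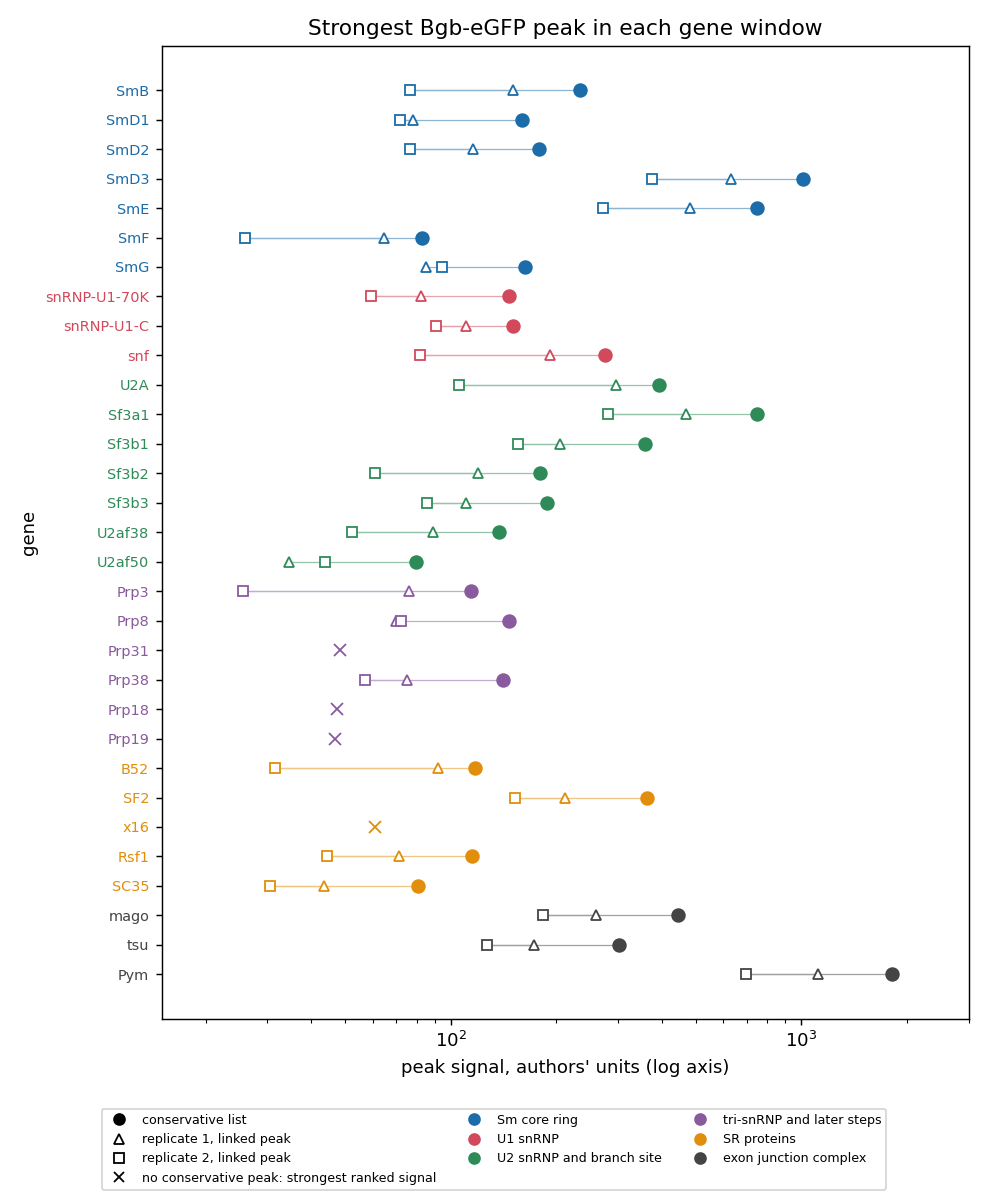
Strongest conservative signal in each gene window (filled circles, authors' units, log axis) with the linked signals of replicate 1 (triangles) and replicate 2 (squares), and the strongest ranked signal of the 4 genes without a conservative peak (crosses). Pym, SmD3, SmE and Sf3a1 lie to the right of the others, and the linked replicate 1 signal exceeds that of replicate 2 in all genes with a peak but SmG, U2af50 and Prp8, although the replicate 1 peak linked to snRNP-U1-C does not overlap its summit.

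Set in the distribution over all 5223 genes with a peak, the 27 genes were spread from low to high. Of the 27, 12 lay above the median of 186 and 8 above the upper quartile of 323, and 4 lay at or below the lower quartile of 115. The 4 above the 90th percentile were Pym, SmD3, SmE and Sf3a1. SmF, SC35, U2af50 and Prp3 were the lowest.

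**Figure D3:**
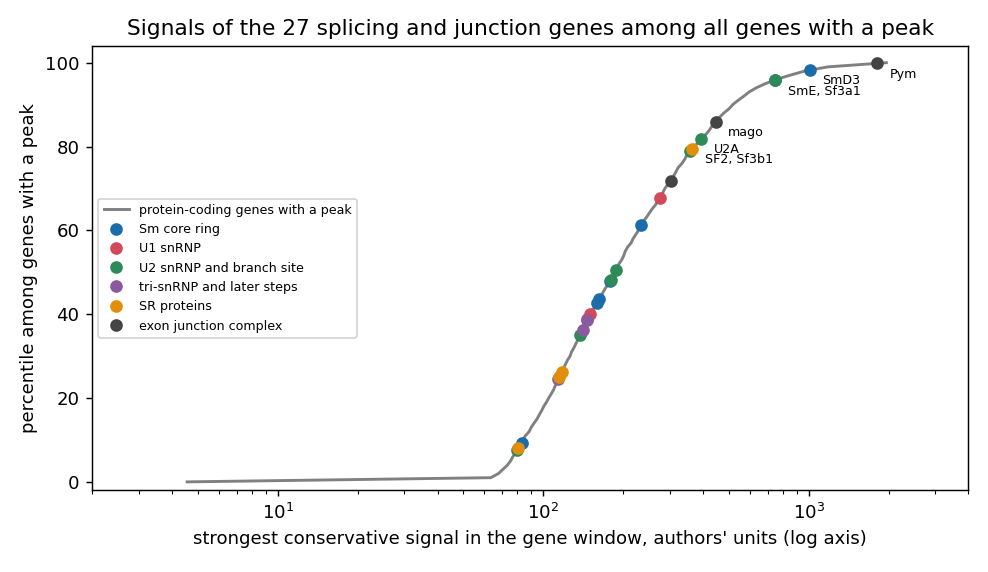
Percentile (vertical axis) of each gene's strongest conservative signal (log axis, authors' units) among the 5223 protein-coding genes with a peak (grey line), with the 27 splicing and junction genes coloured by role. They reach from 79.9 (U2af50) to 1811 (Pym), with a median of 179.

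The peaks sat close to gene starts. The 27 genes held 39 conservative peaks, all within 1000 bp of a protein-coding TSS, against 84.4% of all 4488 peaks. The window holds only the gene and 2 kb upstream, and the genes are short, so part of this closeness is set by the rule. Peaks within 1000 bp of a TSS are the nearer comparison. Of the 39 summits, 34 (87.2%) lay within 100 bp of the nearest TSS, against 63.4% of all peaks and 75.2% of the 3788 peaks within 1000 bp of a TSS. The median distance was 43 bp, against 61 bp over all peaks and 49 bp over those 3788. The share upstream of the nearest TSS was 74.4% (29 of 39), against 65.1% of all peaks and 69.4% of the 3788.

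For the strongest peak of each gene, 22 of 27 summits lay within 100 bp of the gene's own TSS, from 82 bp upstream to 49 bp inside. Their median position was -39.5 bp, where negative is upstream. Over all 2847 summits within 100 bp of a TSS it was -23 bp, but those are not only strongest peaks and are measured to any nearest TSS. Measured alike, all 39 summits had a median of -28 bp to the nearest TSS. It was -27 bp over all peaks and -29.5 bp over those within 1000 bp of a TSS, so no shift upstream was seen. Of the 27 strongest summits, 22 lay upstream of the gene and 5 inside it (SmF, U2af38, U2af50, Prp38 and SC35). The nearest protein-coding TSS was the gene's own in 25 of 27 (92.6%), against 61.0% of all genes with a peak, and Rsf1 and tsu were the exceptions. The median peak width was 352 bp, against 376 bp over all peaks.

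**Figure D4:**
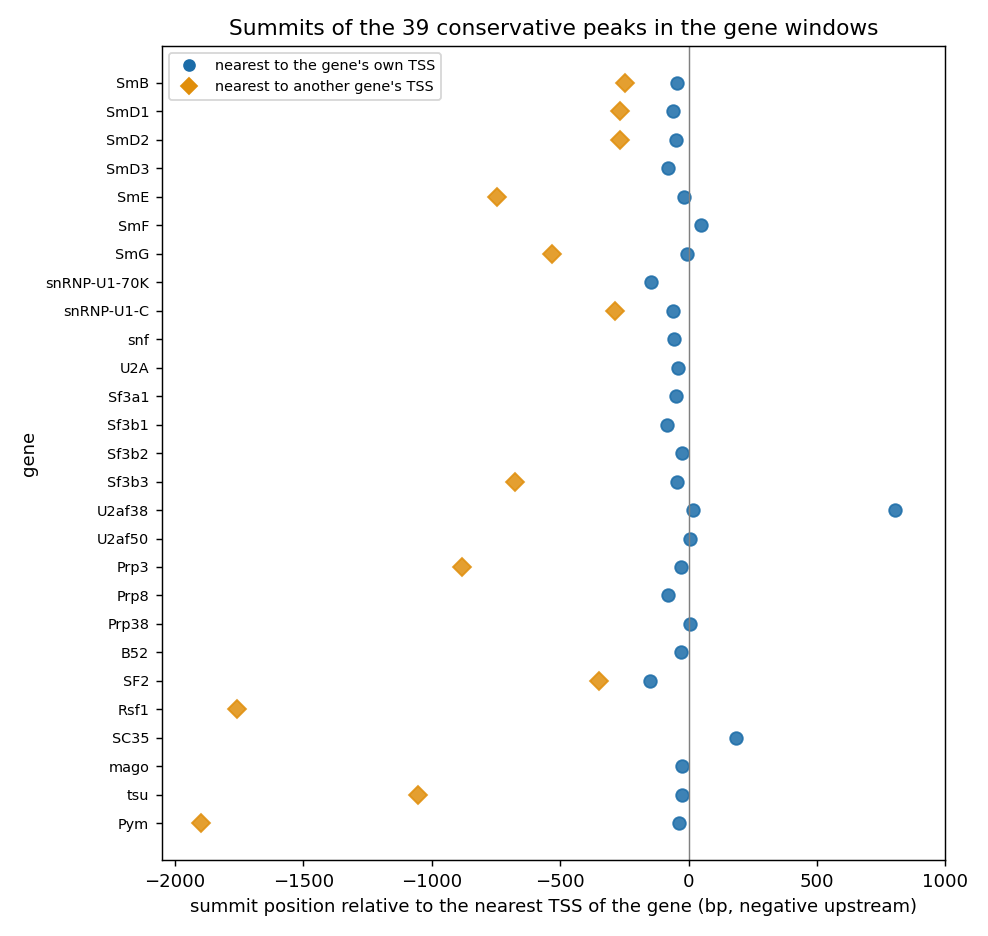
Position of the 39 conservative summits relative to the nearest TSS of the gene in whose window they lie (bp, negative upstream), with circles where that gene's TSS is the nearest protein-coding TSS and diamonds where another gene's is. The circles gather at 0, and the 12 diamonds lie 246 to 1896 bp upstream.

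Pairs of peaks were common, and mostly 1 of the pair lay nearest to the start of a neighbouring gene. Of the 27 genes, 12 (44.4%) had 2 peaks, against 1304 of the 5223 genes with a peak having 2 or more. In 11 of the 12, 1 of the pair was nearest to the TSS of another gene. SmB had 191 at 246 bp upstream, nearest to KdelR, SmD1 had 141 at 265 bp, nearest to Ptp69D, and SmG had 141 at 533 bp, nearest to mthl1. SmE had 183 at 745 bp, nearest to CG34132, whose TSS was almost as far, at 692 bp. Pym had 124 at 1896 bp, nearest to bgcn. Each of these second peaks lay closer to the start of the neighbour than to that of the splicing gene, so it cannot be assigned to the splicing gene alone.

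Further pairs were weaker or not separate. snRNP-U1-C had 122 at 285 bp upstream, nearest to gukh, Prp3 had 91.6 at 882 bp, nearest to Su(Tpl), and Sf3b3 had 91.5 at 676 bp, nearest to CG42553. SmD2 had 2.50 at 266 bp, nearest to CG18048, and SF2 had 35.8 at 350 bp, nearest to pad. In SmD2, SF2 and snRNP-U1-C both peaks of the pair linked to 1 and the same peak in each replicate, so the replicates do not separate them. U2af38 alone had both peaks nearest to its own TSS, the second, 78.5, being 805 bp inside the gene.

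The window of 2 kb decided few of these. Just inside it lay the peaks at 1896 bp (Pym, 124) and 1759 bp (Rsf1, 115), both nearest to other genes. Just outside it lay 126 at 2241 bp upstream of Sf3b3, nearest to CG42554, and 80.5 at 2722 bp upstream of Prp8, nearest to CG34232.

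Divergent promoters were frequent among the 31 genes. A divergent neighbour, a protein-coding gene on the other strand starting within 1000 bp head to head, was present for 24 of 31 (77.4%), against 33.6% of all genes. Of the 24, 20 had a conservative peak, against 56.8% of all genes with such a neighbour. Of the 7 without one, 7 had a peak, against 27.6%. Divergent neighbours included Cdk7, 259 bp from snf, shrb, 42 bp from Prp38, Tmtc3, 67 bp from mago, and Mi-2, 85 bp from Prp3. Both SR genes B52 and x16 started head to head with a gene of the hnRNP family of RNA-binding proteins, B52 at 780 bp from Hrb87F and x16 at 494 bp from Hrb27C. The genes without a conservative peak all had a divergent neighbour, Msh6 for Prp31, CG6013 for Prp18, rswl for Prp19 and Hrb27C for x16.

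The 31 genes were short, with a median length of 1723 bp, against 2165 bp over all genes and 3184 bp over genes with a peak. Their longest transcripts by exon number had a median of 2 exons, against 3 over all genes, and 8 genes had a single exon. They lay on all major arms, with 9 on 2L (8 with a peak), 9 on 2R (8), 4 on 3L (3), 6 on 3R (5) and 3 on X (3). Prp8, SmD3 and SmF lay within 30.1 kb of each other on 2R, with signals of 146, 1009 and 83.0.

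The replicates differed in signal in the same way as elsewhere in the genome. At 36 of the 39 peaks (92.3%) the linked replicate 1 signal was the higher, against 91.7% of the 4459 conservative peaks with a signal from both. The log2 ratio of replicate 1 to replicate 2 was 0.60 ± 0.46 (median, SD across 39 peaks), against 0.68 ± 0.52 over all peaks. In SmD2, SF2 and snRNP-U1-C both peaks of the pair carry the same linked signals, so these count more than once among the 39. A ranked peak of both replicates covered the summit at 34 of the 39, and at the others, in SmB, SmD2, snRNP-U1-C and SF2, a linked signal came from a peak beside it. Across the 27 strongest peaks the log2 ratio of linked signals ran from -0.34 at U2af50 to 1.58 at Prp3. Signals were not rescaled between the libraries, since the scaling is not given in the sources used here. SmF, Prp3, B52 and Rsf1, which were absent from the replicate 2 list, had replicate 2 signals of 25.9, 25.5, 31.5 and 44.3.

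The CGATA element was, of the sequences searched, the one most often found under these summits. CGATAA or CGATAG, searched on both strands within 50 bp of the summit, was present at 20 of the 27 strongest summits (74.1%) and at 25 of all 39 (64.1%), against 38.1% of all conservative peaks and 42.8% of those within 1000 bp of a TSS. The 27 are strongest peaks, whereas the comparison holds peaks of any strength. In the stronger 50% of peaks the share was 72.7% in the listed gene windows (n = 22), against 55.6% of all. The reversed letters, AATAGC or GATAGC, served as a control of the same base composition and were present at 7 of 39 (17.9%), against 14.8% of all peaks. This control is not fully independent, since CGATAG followed by C holds GATAGC, as in the printed Sf3b1 stretch. Where present, the nearest copy lay at a median of 15 bp from the summit, and within 20 bp in 12 of 20 genes. U2A and Sf3b3 held the most copies, 4 each, and 8 genes held 2 or more.

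The genes whose strongest summit lacked both forms were SmD1, SmF, snRNP-U1-70K, snRNP-U1-C, Sf3b2, SF2 and SC35. Their signals ran from 80.5 to 364 with a median of 151, and those of the 20 genes with a copy ran from 79.9 to 1811 with a median of 211. Over all conservative peaks the medians were 116 for the 2780 without a copy and 238 for the 1708 with one. All 4 genes above the 90th percentile of signal held a copy. Copies were more frequent at strong peaks in general, at 55.6% of the stronger 50% of conservative peaks against 38.1% of all. The 4 genes were not compared with peaks of like strength. SF2 had no copy within 50 bp of its summit but 3 in the promoter stretch from 250 bp before to 50 bp after its gene start.

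TATCGATA overlaps CGATAA or CGATAG, or a complement of these, where the flanking base completes it. It was present at 11 of 39 summits (28.2%), against 15.2% of all peaks and 17.5% of those within 1000 bp of a TSS. It was also at the summits of snRNP-U1-C and Sf3b2, which lacked both CGATAA and CGATAG. GGTCACAC was present at 7 of 39 (17.9%), against 4.32% and 5.02%, and the strongest summits with it were those of SmE, SmF, SmG and Prp3. SmF, the Sm gene with the lowest signal, thus had GGTCACAC and no CGATA form. TATAAA was present at 7 of 39 (17.9%), against 8.89% of all peaks.

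The Runx consensus, bound by the Runt domain partners of Bgb, was present at 4 of 39 summits (10.3%), against 4.72% of all conservative peaks and 4.99% of those within 1000 bp of a TSS. The strongest summits with it were those of SmF, SmG and Prp8. A match of letters is a description and does not show which protein was bound, and the absence of a match says only that the letters are not in the stretch searched.

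**Figure D5:**
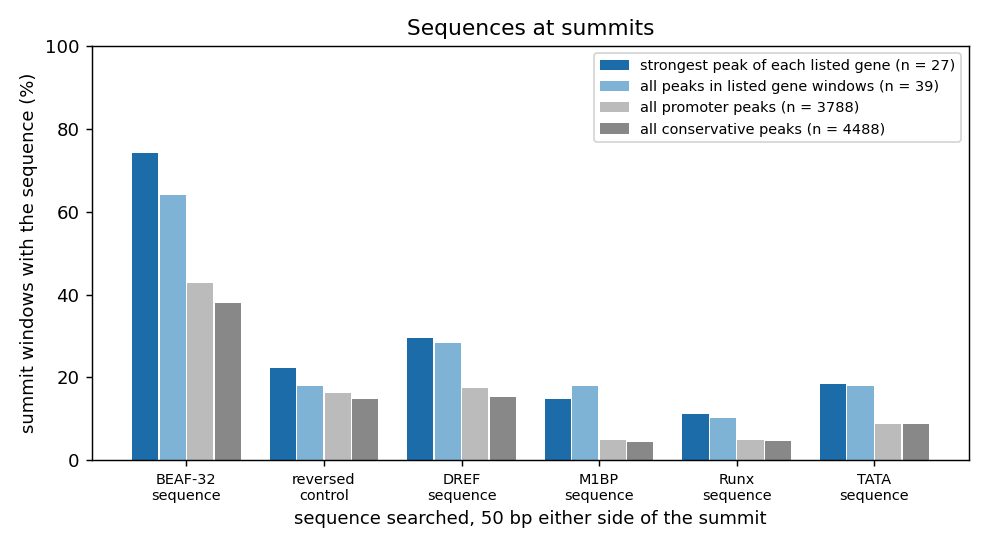
Share of summits (%, vertical axis) with each sequence within 50 bp, for the strongest peaks of the 27 genes, all 39 peaks in their windows, all 3788 peaks within 1000 bp of a TSS and all 4488 conservative peaks. The BEAF-32 sequence stands at 74.1% and 64.1% in the first 2 sets, against 42.8% and 38.1%, while the reversed control stays at 22.2% or below. Only the first set is limited to the strongest peak of each gene.

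Promoters were also searched without reference to the summits. From 250 bp before to 50 bp after the gene start, CGATAA or CGATAG was present in 20 of the 27 genes with a peak and in 0 of the 4 without one. Over all protein-coding genes it was present in 35.0%, in 53.6% of those with a peak and in 23.9% of those without. The reversed control was present in 10 of the 27 (37.0%) and 2 of the 4, against 26.1% of all genes. TATCGATA was present in 12 of the 27 and 0 of the 4, against 20.7% of all genes with a peak and 2.56% of those without. The Runx consensus was present in 6 of the 27 and 1 of the 4, against 11.4% of all genes.

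Other splicing genes, beyond the 31, also often had a peak. Of 67 names listed, 58 were found in the annotation, 9 of them through another name, and 38 of the 58 (65.5%) had a conservative peak, a share between the 87.1% of the 31 and the 37.4% of all genes. The share was 8 of 11 among junction complex partners and nonsense-mediated decay genes, led by Upf1, the RNA helicase of that decay, with 529 (291 and 235), Acn with 512 (280 and 237) and Smg5 with 504 (269 and 234). In this group btz, a core subunit of the junction complex, RnpS1 and Smg6 had no conservative peak. Among splicing regulators 9 of 13 had one, led by heph, the polypyrimidine tract-binding protein, with 684 (367 and 323), mub with 618 (489 and 118) and the kinase gene Doa with 341 (205 and 155).

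Among other snRNP and U6 ring genes 13 of 19 had a peak, and the 3 strongest lay nearest to the start of another gene. These were U4-U6-60K with 649 (342 and 297), nearest to CG7564, and Prp40 with 387 (256 and 129), nearest to alpha4GT1. The Prp40 summit lay 31 bp from the TSS of alpha4GT1 and 54 bp upstream of Prp40 itself. The third was Spx with 236, nearest to Rbcn-3A, which was linked to a replicate 2 signal of 95.4 only. Spx had another peak of 235 (123 and 95.4), 33 bp upstream of its own TSS. In the list made for the Prp19 complex and spliceosomal helicases 8 of 15 had a peak. This list also takes in other splicing factors, such as Slu7 and ncm. The strongest were Slu7 with 452 (264 and 185), nearest to Pkc98E, ncm with 372 (227 and 142) and l(1)10Bb with 355 (217 and 157). The group of the tri-snRNP and later steps among the 31 (3 of 6) and the Prp19 complex and helicase group (8 of 15) had the lowest shares of their lists. Both shares lay above the 37.4% of all genes. Every gene of the first group and most of the second had a divergent neighbour, however. Over all genes with such a neighbour the share was 56.8%, above both. The groups are small, and a difference between splicing steps was not tested.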

How the data were processed

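ChIP-seq peak lists of 2 biological replicates of Bgb-eGFP embryos were analysed. The authors deposited a signal value and a −log10 q value for every peak on the dm6 build, as the file columns show, and the −log10 values were not used for ranking. For the aligner, the peak caller, the signal scaling and the read depth, nothing is stated in the labels or files used. The series lists combine both replicates: a conservative list and a second list that passed a threshold of irreproducible discovery rate (IDR), per the labels of the files, and ranked lists without a threshold.

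Summits were placed on genes of Ensembl release 115 (same assembly as dm6), from 2 kb upstream of the start to the gene end. Distances refer to the TSS of any transcript of a protein-coding gene. Replicate signals came from linking the paired positions of the ranked series list to each replicate's own ranked list: of 101843 pairs, 80671 first positions were found in replicate 1, 73316 second positions in replicate 2, and 0 the other way round. Replicate numbers come from the labels. Sequences were searched on both strands of the RefSeq genome, with the palindrome TATCGATA counted once. No p-value was computed, since there was 1 group and no control library was analysed. The edges of the gene window and the sequence search were tested on planted summits and a planted sequence. The replicate links, the nearest TSS rule and the divergent neighbours were not tested in this way. The 31 genes, the other gene lists and the sequences searched were chosen with earlier results of these data known. All 31 genes are named whatever their values. Of each group of other splicing genes the 3 with the strongest peak are named, and eIF4AIII, btz, RnpS1 and Smg6 were named after their values were seen. A total of 9 listed names were not matched and were not analysed here. Python 3.11.15, numpy 2.4.6, pandas 2.3.3 and matplotlib 3.10.9 were used.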

Additional observations from a re-analysis of the deposited data

How the results depend on the processing

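The counts over the 31 and the 58 genes stayed within 1.5 times under the alternatives tried, but counts within small groups did not: in the replicate 2 list alone, SR genes with a peak fell from 4 to 1 and splicing regulators from 9 to 5. The number of the 31 genes with a peak ran from 19 to 28 over the peak lists, the stronger 50% of peaks (19, against 23.2% of all genes) and the gene windows, and leaving out 1 replicate each gave 22 to 26. For the 58 other splicing genes the count ran from 26 (stronger 50% of peaks, against 23.2% of all genes) to 45 (second series list, against 45.2%). Leaving out 1 replicate each gave 31 (against 29.5%) to 44 (against 43.7%). The median strongest signal was 179 in the other windows, against 183 and 166 over all genes with a peak. It was 275 in the stronger 50% of peaks (against 282), 113 in the replicate 1 list (against 100) and 88.1 in the replicate 2 list (against 91.6). The median distance to a TSS was 39 to 50 bp, against 51 to 80 bp over all peaks of the lists. The lowest share of summits with CGATAA or CGATAG over the lists was 52.1%, in the second series list, against 30.03% of all its peaks. The highest was 72.7%, in the stronger 50% of peaks, against 55.6%. With 100 bp either side the share was 71.8%, against 47.7%. When TATCGATA also counted, a choice made after seeing the data, it was 69.2%, against 39.3%. The median log2 replicate ratio was 0.68 with the strongest replicate peak over the summit. No paired analysis was possible because there was 1 group. Read depth is unknown, so absence of a peak in Prp31, Prp18, Prp19 or x16 says only that none passed the authors' threshold.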

Other observations

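RnpS1, a peripheral junction complex gene, had no peak in any of the 4 lists. A ranked peak in its window had a signal of 123, above the 79.9 of U2af50 in the conservative list. The highest ranked signals in the RnpS1 window were 94.8 in replicate 1 and 20.1 in replicate 2. Those of U2af50 were 34.5 and 43.7. In the second series list SC35 had 6 peaks with signals from 19.7 to 84.4, of which 3 lay nearest to the TSS of eRF3. A conservative peak of 162 lay past the end of SmD1, outside its window, 1652 bp from its TSS. The 6 of 39 peaks (15.4%) that overlapped another conservative peak compare with 8.71% of all peaks.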
